A study of Mus musculus with 16 samples.

Results

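Of the 20832 genes that a RefSeq table named on the arrays, 9 acute-phase genes were followed here: Saa1, Saa2, Saa3, Hp, Orm1, Orm2, Lbp, Ptx3 and C3. They were chosen by name as acute-phase genes, after their levels in these wounds had been seen, so their levels and differences below are a description and carry no p-value. Full-thickness skin wounds of 4 groups of female mice were measured on single-colour Agilent arrays. The WT group was C57BL/6J mice aged 10 to 12 weeks. The db/db group was untreated C57BLKS/J Iar-+Leprdb/+Leprdb mice aged 10 weeks, which carry the Lepr mutation on both alleles and have type 2 diabetes. Wounds of the db/db + estrogen group were treated topically with estradiol benzoate in sesame oil at 0.75 μg/g/day, and those of the db/db + vehicle group with the oil only. There were 16 arrays, 2 per group for labelled day 7 and 2 per group for labelled day 14. RNA came from the homogenized wound together with the skin around it, so in every result below fewer cells of a type and less RNA per cell cannot be told apart. WT and db/db mice differ in strain background as well as in the Lepr mutation, and strain and mutation cannot be told apart. No label says whether the 2 arrays of a group are separate mice, so the spread between them may be technical in part.

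The acute phase is the early systemic reaction to injury, infection or inflammation, in which the liver raises its output of a set of plasma proteins. Interleukin-6, interleukin-1β and tumour necrosis factor drive it, through STAT3, NF-κB and the C/EBP transcription factors. Many of the same genes are also transcribed outside the liver, in macrophages, neutrophils, endothelium, fat cells and epithelium, and Saa3 in the mouse is known mainly as an extrahepatic serum amyloid A. In skin wounds these proteins carry lipid, bind haemoglobin or microbial products, and recruit leukocytes.

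All 9 genes were measured by probes well above background on all 16 arrays, with 1 probe per gene except C3, which had 2. A level is the log2 of the background-subtracted signal minus the log2 of the 75th percentile of the same array, and levels are compared between arrays only, never between probes. A probe is called changed where limma's moderated test over all 16 arrays gave an unadjusted two-sided p under 0.05 and the fold change was above 2. An exact permutation test of 2 arrays against 2 cannot give a two-sided p below 0.333. The arrays of the 2 labelled days were scanned on different days, which cannot be told apart from wound age. Each of the 2 slides of labelled day 7 held 1 array of every group. On labelled day 14 both db/db arrays were on 1 slide and both WT arrays on another, with 1 vehicle and 1 estrogen array on each. Every db/db against WT difference of labelled day 14 thus also holds any difference between these slides. Differences of the vehicle and estrogen groups from db/db or WT on that day hold it in part. The published db/db versus WT fold changes for each day were found on the arrays labelled with the other day, so all days are given here as labelled.

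On labelled day 7 the serum amyloid A genes stood high in db/db wounds and low in WT and db/db + estrogen wounds, and Hp was highest in db/db wounds. No group of labelled day 14 stood apart from all of the others in any Saa gene. Orm1, Orm2 and Lbp did not follow this order, Ptx3 was highest in db/db + vehicle wounds on both labelled days, and the mean C3 level was highest in untreated db/db wounds on both.

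**Figure D1:**
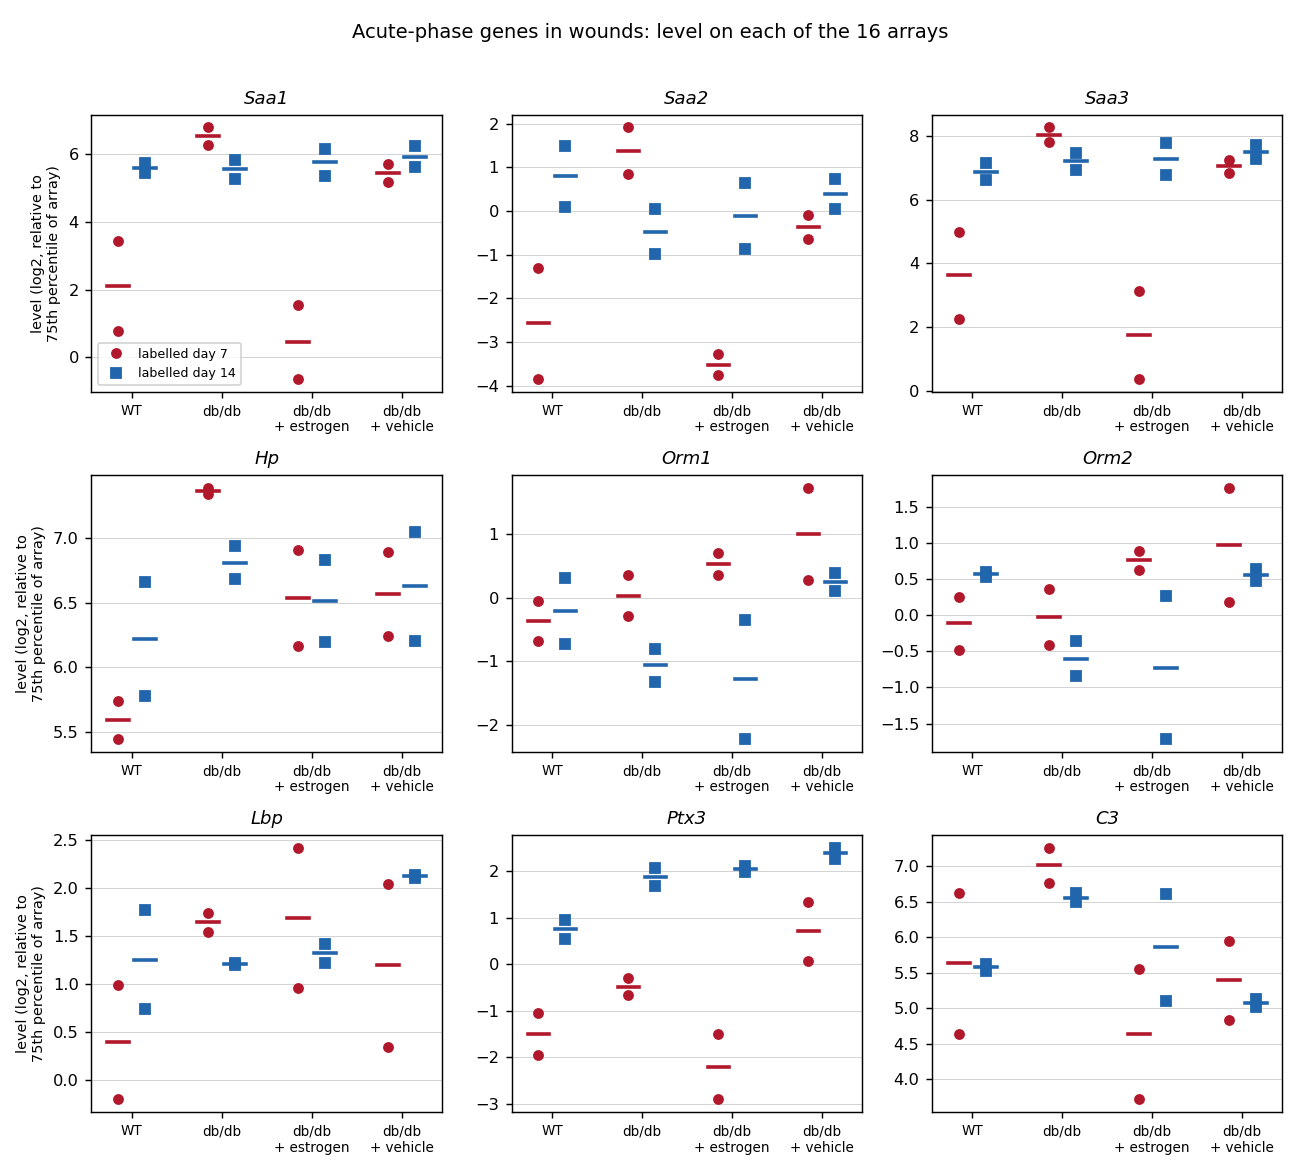
Level of each acute-phase gene (vertical axis, log2 relative to the 75th percentile of the array) in the 4 groups (horizontal axis), with a red circle for each labelled day 7 array, a blue square for each labelled day 14 array and a line at the mean of 2 arrays. For Saa1 and Saa3 the WT and db/db + estrogen arrays of labelled day 7 lie below the other 12 arrays, with Saa3 between 0.38 and 4.99 in those 4. The vertical scale differs between genes.

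The serum amyloid A proteins are small apolipoproteins of high-density lipoprotein that also attract neutrophils and monocytes. Saa1, Saa2, Saa3 and Saa4 are neighbours in the genome. Saa1 and Saa2 are near copies of each other, so their probes may share signal and the separate values of these genes are uncertain. Promoters of Saa1, Saa2 and Saa3 are shown because these genes had the same order of groups on labelled day 7. Each sequence is RefSeq's for GRCm38.p6, 250 bases before and 50 after the start of the gene, written 5′ to 3′ on the strand of the gene, with capitals marking the match to the C/EBP motif TTGCNNAA on either strand. The windows are chr7:46742931-46743230 on the minus strand for Saa1, chr7:46751583-46751882 on the plus strand for Saa2 and chr7:46715627-46715926 on the minus strand for Saa3.
Saa1: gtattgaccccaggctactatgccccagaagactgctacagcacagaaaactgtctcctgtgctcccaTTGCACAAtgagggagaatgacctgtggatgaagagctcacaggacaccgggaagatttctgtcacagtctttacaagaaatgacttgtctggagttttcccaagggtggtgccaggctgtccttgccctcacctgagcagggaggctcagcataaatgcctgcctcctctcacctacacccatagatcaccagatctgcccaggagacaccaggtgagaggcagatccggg
Saa2: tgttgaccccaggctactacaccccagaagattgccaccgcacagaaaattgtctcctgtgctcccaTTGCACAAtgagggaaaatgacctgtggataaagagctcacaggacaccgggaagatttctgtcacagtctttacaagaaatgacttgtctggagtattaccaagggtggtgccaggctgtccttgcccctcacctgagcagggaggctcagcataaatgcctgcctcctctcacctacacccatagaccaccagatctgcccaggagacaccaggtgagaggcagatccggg
Saa3: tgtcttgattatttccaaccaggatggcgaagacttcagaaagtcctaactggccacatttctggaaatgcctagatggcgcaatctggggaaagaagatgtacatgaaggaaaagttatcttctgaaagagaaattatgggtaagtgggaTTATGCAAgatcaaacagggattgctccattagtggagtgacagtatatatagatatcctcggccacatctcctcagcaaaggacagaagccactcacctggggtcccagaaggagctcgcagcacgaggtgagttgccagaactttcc
The Saa1 window was identical to that of Saa2 at 287 of 300 aligned bases, or 95.7%, while Saa1 and Saa3 shared 165 bases, or 55.0%. The unrelated pair Saa1 and Orm2 shared 159 bases, or 53.0%, by the same alignment. The C/EBP match began 182 bases before the start in Saa1, 183 in Saa2 and 99 in Saa3.

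Saa3 had the widest range of the 9 genes, from 0.38 to 8.26 with a median of 7.03 over the 16 arrays, a 236-fold span. On labelled day 7 its level was 4.99 and 2.26 in WT wounds, 7.81 and 8.26 in db/db wounds, 0.38 and 3.14 in db/db + estrogen wounds, and 6.82 and 7.26 in db/db + vehicle wounds. The 2 db/db arrays were the highest, the vehicle arrays came next without overlap, and the WT and estrogen arrays lay far below them and overlapped each other. At labelled day 14 Saa3 was at 7.14 and 6.60 in WT, 6.92 and 7.47 in db/db, 7.76 and 6.77 in db/db + estrogen, and 7.28 and 7.72 in db/db + vehicle wounds. No group of that day stood apart from the rest. In db/db wounds of labelled day 7 Saa3 was higher than in WT by 4.41 (SE 0.94) on the log2 scale. In db/db + estrogen wounds it was lower than in db/db by 77.5-fold, a log2 difference of -6.28, and lower than in db/db + vehicle wounds by a log2 difference of -5.28. Vehicle alone stood at -0.99 against db/db. The WT arrays and the estrogen arrays of labelled day 7 were the most spread, with the 2 estrogen arrays 2.76 apart. Leaving out WT replicate 1 of labelled day 7 gave 5.77 for db/db against WT, and leaving out WT replicate 2 gave 3.05. Leaving out estrogen replicate 1 gave -4.90 against db/db, and leaving out estrogen replicate 2 gave -7.66.

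Saa1 followed Saa3 nearly array by array. Its level on labelled day 7 was 3.44 and 0.79 in WT, 6.29 and 6.79 in db/db, -0.64 and 1.55 in db/db + estrogen, and 5.16 and 5.72 in db/db + vehicle wounds. The labelled day 14 levels of Saa1 were 5.73 and 5.45 in WT, 5.28 and 5.84 in db/db, 6.15 and 5.36 in db/db + estrogen, and 5.62 and 6.24 in db/db + vehicle wounds. The labelled day 7 groups ran in the order db/db, vehicle, then WT and estrogen, with no order among the labelled day 14 groups. Saa1 was higher in db/db than in WT wounds of labelled day 7 by 4.43 (SE 0.84), and with estrogen it was lower than in db/db by 67.7-fold, a log2 difference of -6.08. The first difference was 5.75 without WT replicate 1 and 3.10 without WT replicate 2, and the second -4.99 without estrogen replicate 1 and -7.17 without estrogen replicate 2. Against vehicle the estrogen difference was -4.98, and vehicle against db/db was -1.10. The same 4 differences of labelled day 14 lay between -0.17 and 0.37, with overlapping arrays in each.

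Saa2 levels on labelled day 7 were -1.30 and -3.84 in WT, 0.85 and 1.91 in db/db, -3.76 and -3.28 in db/db + estrogen, and -0.10 and -0.64 in db/db + vehicle wounds. The labelled day 14 values were 0.10 and 1.49 in WT, -0.99 and 0.04 in db/db, 0.65 and -0.87 in db/db + estrogen, and 0.04 and 0.74 in db/db + vehicle wounds. The groups of labelled day 7 had the order of Saa1 and Saa3, but on labelled day 14 both db/db arrays lay below both WT arrays. The db/db against WT difference was 3.95 (SE 0.85) on labelled day 7 and -1.27 (SE 0.85) on labelled day 14. The labelled day 7 value was 5.22 without WT replicate 1 and 2.68 without WT replicate 2. Estrogen against db/db was -4.90 on labelled day 7, a 29.8-fold lower level, and 0.36 on labelled day 14.

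Hp encodes haptoglobin, the plasma protein that binds free haemoglobin and is stored in neutrophil granules. It was bright and narrow in range, from 5.45 to 7.39 with a median of 6.67, a 3.83-fold span. On labelled day 7 Hp was at 5.74 and 5.45 in WT, 7.39 and 7.34 in db/db, 6.17 and 6.90 in db/db + estrogen, and 6.24 and 6.89 in db/db + vehicle wounds. The db/db arrays were above all other arrays, the WT arrays below all other arrays of that day, and the estrogen and vehicle arrays interleaved. In the labelled day 14 wounds Hp was at 6.66 and 5.78 in WT, 6.68 and 6.93 in db/db, 6.83 and 6.20 in db/db + estrogen, and 6.21 and 7.04 in db/db + vehicle wounds. Hp was higher in db/db than in WT wounds by 1.77 (SE 0.40) on labelled day 7 and by 0.58 (SE 0.40) on labelled day 14. Estrogen and vehicle stood at about the same distance below db/db on labelled day 7, at -0.83 and -0.80, and their own difference was -0.03 (SE 0.40). Here Hp parted from the Saa genes, which were lower with estrogen than with vehicle.

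Orm1 and Orm2 encode orosomucoid, also called α1-acid glycoprotein, a plasma carrier of basic drugs and lipids that tempers inflammation. These genes lie next to each other and next to Orm3, and they are alike enough that their probes may share signal, so their separate values are uncertain. The Orm2 promoter is shown as the RefSeq window of this family that was matched, at chr4:63362199-63362498 on the plus strand in GRCm38.p6, with the C/EBP match in capitals.
Orm2: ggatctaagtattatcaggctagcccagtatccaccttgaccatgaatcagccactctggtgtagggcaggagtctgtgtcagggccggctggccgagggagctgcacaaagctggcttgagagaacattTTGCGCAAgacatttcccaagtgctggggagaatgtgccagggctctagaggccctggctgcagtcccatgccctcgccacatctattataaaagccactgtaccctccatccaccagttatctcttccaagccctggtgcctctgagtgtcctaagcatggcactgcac
The match began 120 bases before the start, and the window was identical to that of Orm3 at 263 of 300 bases, or 87.7%.

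Orm1 levels on labelled day 7 were -0.06 and -0.67 in WT, -0.29 and 0.36 in db/db, 0.70 and 0.35 in db/db + estrogen, and 0.27 and 1.73 in db/db + vehicle wounds. Orm1 levels of labelled day 14 were 0.32 and -0.72 in WT, -0.80 and -1.33 in db/db, -0.34 and -2.22 in db/db + estrogen, and 0.10 and 0.40 in db/db + vehicle wounds. WT and db/db overlapped on labelled day 7, and on labelled day 14 the vehicle arrays lay above both db/db and estrogen arrays. Orm2 levels on labelled day 7 were 0.25 and -0.48 in WT, -0.41 and 0.36 in db/db, 0.89 and 0.63 in db/db + estrogen, and 0.18 and 1.76 in db/db + vehicle wounds. Its labelled day 14 levels were 0.53 and 0.59 in WT, -0.36 and -0.84 in db/db, 0.26 and -1.71 in db/db + estrogen, and 0.48 and 0.64 in db/db + vehicle wounds. Unlike the Saa genes, neither Orm gene was high in the db/db wounds of labelled day 7, where db/db against WT was 0.40 (SE 0.64) for Orm1 and 0.09 (SE 0.64) for Orm2. Orm1 was lower with estrogen than with vehicle on labelled day 14 by a log2 difference of -1.53 (SE 0.64), and that of Orm2 was -1.28. Without estrogen replicate 2 of that day the Orm1 difference was -0.59 and no longer called, and the call was also lost without either vehicle array, at -1.68 and -1.38. The neighbouring gene Orm3 was at or below -1.40 on every array.

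Lbp encodes lipopolysaccharide-binding protein, which passes bacterial lipopolysaccharide to CD14 and Toll-like receptor 4. Its levels on labelled day 7 were 0.99 and -0.20 in WT, 1.74 and 1.54 in db/db, 0.96 and 2.42 in db/db + estrogen, and 2.05 and 0.35 in db/db + vehicle wounds. At labelled day 14 they were 1.77 and 0.74 in WT, 1.22 and 1.20 in db/db, 1.42 and 1.22 in db/db + estrogen, and 2.14 and 2.10 in db/db + vehicle wounds. The db/db arrays were above both WT arrays on labelled day 7 by 1.25 (SE 0.63), which was not called, and the treated groups of that day spanned a wider range than any difference between them. The vehicle arrays of labelled day 14 lay above the other 6, by 0.91 against db/db.

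Ptx3 encodes pentraxin 3, a long pentraxin that is made locally by macrophages, endothelium and fibroblasts and opsonizes microbes. Its levels on labelled day 7 were -1.05 and -1.94 in WT, -0.65 and -0.30 in db/db, -2.90 and -1.50 in db/db + estrogen, and 1.34 and 0.08 in db/db + vehicle wounds. The labelled day 14 levels were 0.55 and 0.96 in WT, 1.69 and 2.06 in db/db, 2.10 and 1.98 in db/db + estrogen, and 2.27 and 2.51 in db/db + vehicle wounds. In each group the labelled day 14 arrays were above those of labelled day 7, and vehicle was above every other group of its day. Estrogen was below db/db by a log2 difference of -1.72 (SE 0.51) and below vehicle by -2.91 on labelled day 7. Vehicle was above db/db by 1.18, a difference whose call was lost without vehicle replicate 1, at 0.55, and without either db/db array, at 1.01 and 1.36. The estrogen difference to db/db was -1.03 without estrogen replicate 1 and no longer called. Untreated db/db was above WT on labelled day 14 by 1.12 without being called, and estrogen was 0.17 above db/db with overlapping arrays.

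C3 encodes complement component 3, on which the pathways of complement activation meet. On labelled day 7 its brighter probe read 6.63 and 4.64 in WT, 7.26 and 6.77 in db/db, 3.72 and 5.55 in db/db + estrogen, and 5.95 and 4.84 in db/db + vehicle wounds. At labelled day 14 it read 5.63 and 5.52 in WT, 6.50 and 6.62 in db/db, 5.11 and 6.61 in db/db + estrogen, and 5.02 and 5.14 in db/db + vehicle wounds. Untreated db/db wounds had the highest mean on either labelled day, and the WT and vehicle arrays lay wholly below the db/db arrays of their day. Estrogen was lower than db/db by a log2 difference of -2.38 (SE 0.76) on labelled day 7, and vehicle by -1.62, while estrogen and vehicle themselves overlapped at -0.76. The estrogen call was lost without estrogen replicate 1, at -1.47, and without db/db replicate 1, at -2.13. The other C3 probe gave -2.46 for estrogen and -1.76 for vehicle, and it called both.

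Over the 9 genes, 4 were called higher and 0 lower in db/db against WT wounds of labelled day 7, where 5.67% of all probes tested were called higher and 8.42% lower. These were Saa1, Saa2, Saa3 and Hp, and all 9 had a difference above 0, with a median of 1.38 beside -0.05 for all probes. Estrogen against db/db on labelled day 7 called 0 higher and 5 lower, Saa1, Saa2, Saa3, Ptx3 and C3, beside 5.22% and 4.71% of all probes. Vehicle against db/db called Ptx3 higher and 0 lower, beside 2.52% and 2.3%. This count turned with the processing, to 0 higher with Saa1, Saa2 and C3 lower when only the 4 arrays compared were fitted, and Saa2 and C3 were called lower with normexp background correction and Hp and C3 with quantile normalization. Estrogen against vehicle called 0 higher and 4 lower, Saa1, Saa2, Saa3 and Ptx3, beside 4.66% and 4.32%. The comparisons with db/db share the same db/db arrays, and those with vehicle share the vehicle arrays. The genes were selected on these contrasts, so nothing is read from their counts against the background.

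On labelled day 14 none of the 9 genes was called by limma at an unadjusted p under 0.05 and a fold above 2 in db/db against WT wounds, where 2.35% of all probes were called higher and 15.6% lower. None was called for estrogen against db/db, beside 2.56% and 1.36%, nor for vehicle against db/db, beside 5.31% and 2.2%. Orm1 was called lower for estrogen against vehicle and 0 were called higher, beside 0.476% of all probes lower and 0.507% higher. The medians of the 9 differences in these 4 comparisons were -0.03, 0.07, 0.52 and -0.35.

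**Figure D2:**
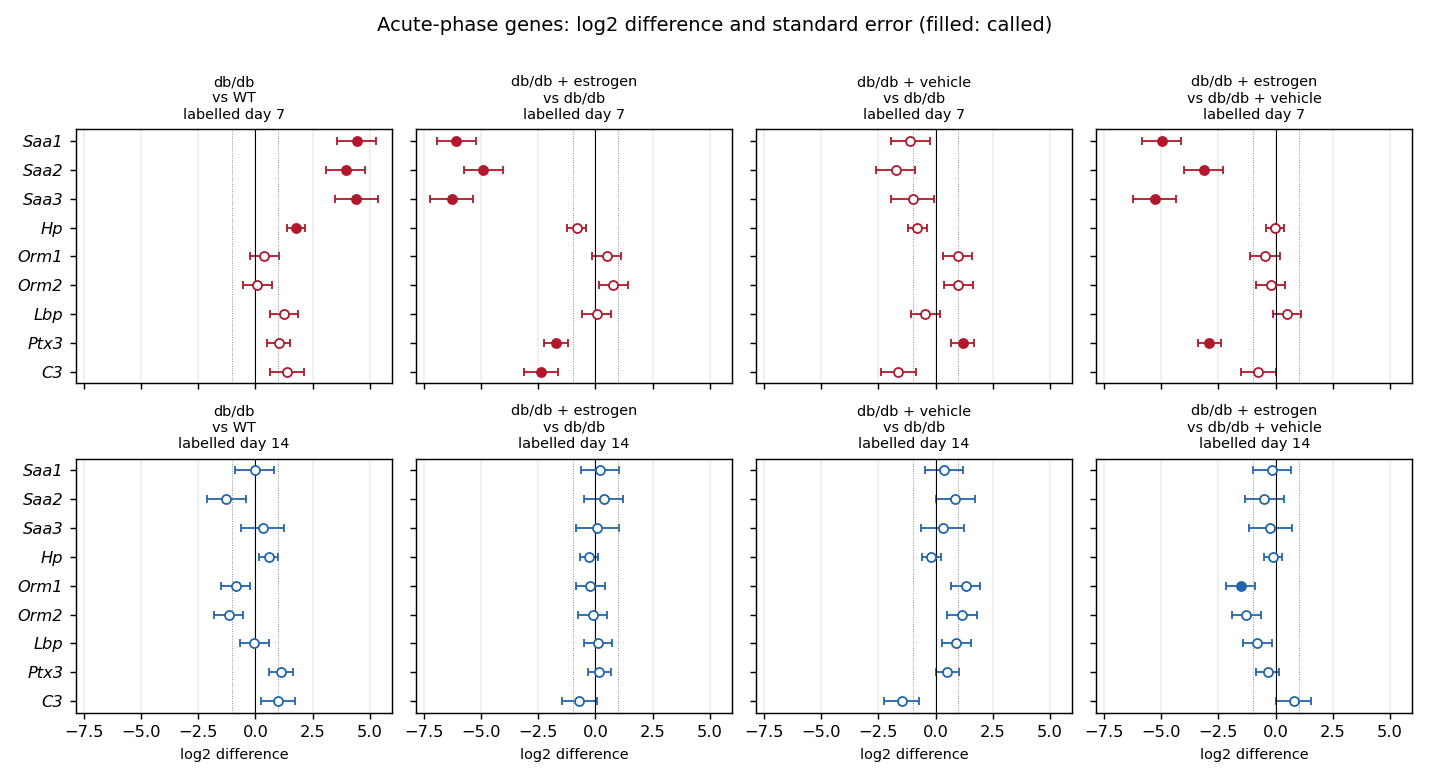
Log2 difference of each acute-phase gene (horizontal axis) with its standard error as a bar, for 4 comparisons on labelled day 7 (upper row) and labelled day 14 (lower row), filled where called and with dotted lines at a fold change of 2. Saa1 and Saa3 stood at 4.43 and 4.41 for db/db against WT on labelled day 7 and at -0.03 and 0.32 on labelled day 14.

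Across the 16 arrays Saa1 and Saa3 had a Pearson r of 0.997 (Spearman's rho 0.959), and Orm1 and Orm2 one of 0.93. Saa2 had an r of 0.93 with Saa1 and 0.91 with Saa3, which were 0.50 and 0.21 over the 8 arrays of labelled day 14. Saa3 and Hp had an r of 0.54, and Saa3 and Orm2 one of -0.11. The arrays share groups and slides, and the WT and estrogen arrays of labelled day 7 stood apart in the Saa genes, so these values are a description. For Saa3 and C3 the r of 0.57 went to 0.05 without the 2 arrays farthest from the median of Saa3, and it was 0.76 over the 8 arrays of labelled day 7 and -0.45 over the 8 of labelled day 14. For Saa3 and Ptx3 the r of 0.79 went to 0.55 without those 2 arrays. Saa1 and Orm1 had an r of 0.18 on labelled day 7 and of 0.53 on labelled day 14.

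**Figure D3:**
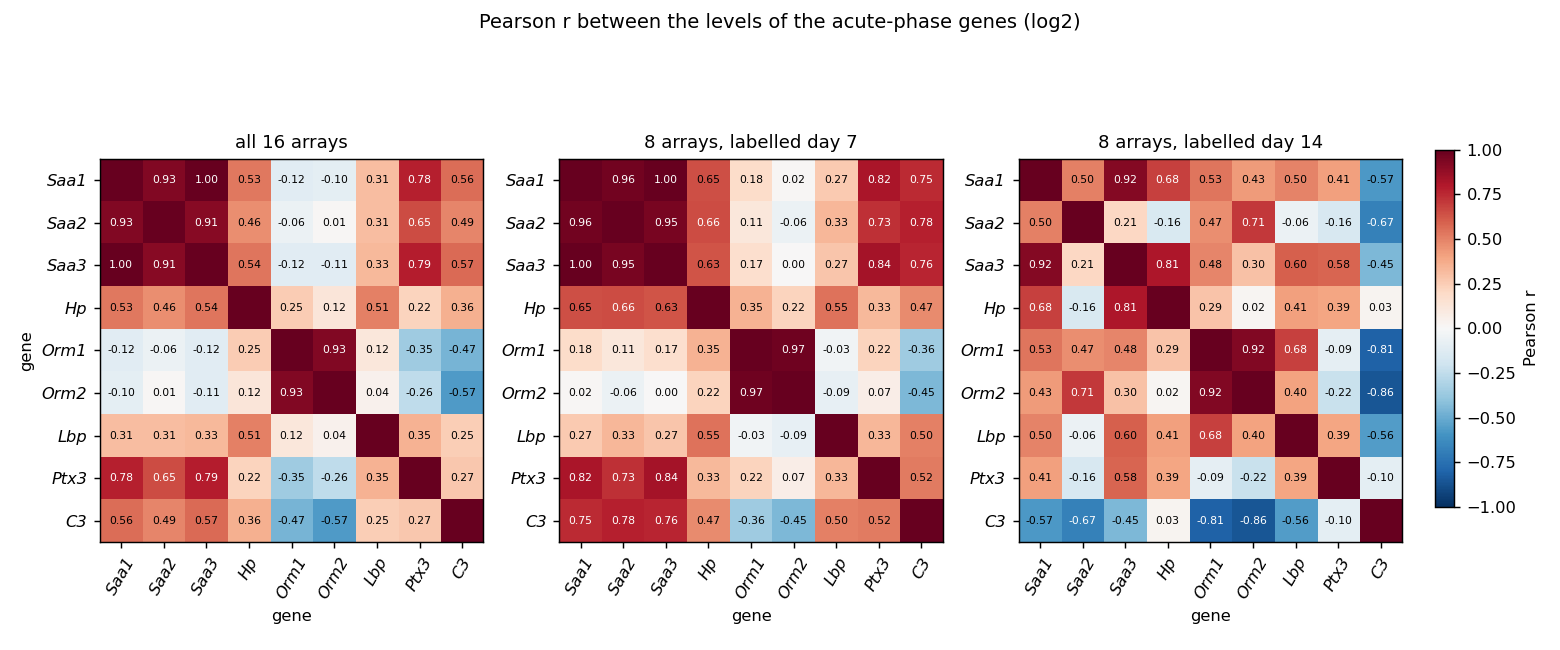
Pearson r between the log2 levels of each pair of acute-phase genes (both axes list the genes), over all 16 arrays, the 8 of labelled day 7 and the 8 of labelled day 14. Saa1 and Saa3 had 0.92 on labelled day 14, while C3 had negative values with all 3 Saa genes there.

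Among 22111 probes with a gene symbol that were well above background on at least 8 arrays, those most like Saa3 over the 16 arrays were of Saa1, Csf3 at 0.963, Cxcl3 at 0.942, Cxcl5 at 0.941 and Tnfsf14 at 0.939. Csf3 encodes the growth factor of neutrophils, and Cxcl3 and Cxcl5 encode chemokines that attract them. Those most like Hp were of Rufy4 at 0.873, Nfe2l2 at 0.871, Bcl2l1, Herpud1 and Nfam1. Those most like C3 were of Rnf166 at 0.837, Tmem176b at 0.820, Mllt6, Sv2b and Sorl1. None of the 9 members other than Saa1 was among these.

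RefSeq promoter windows were matched for 6 of the 9 genes, which left Hp, Orm1 and Lbp. The C/EBP motif TTGCNNAA, sought on both strands, was in all 6 and in 10.8% of 32851 promoter windows of the same length. In Ptx3 it began 57 bases before the start and in C3 45. A looser form, TTNNGNAA, which also takes in every match of the first, was in all 6 and in 40.7% of all windows. The STAT motif TTCNNNGAA was in 0 of 6 and in 8.30% of all windows, the AP-1 motif TGANTCA was in Orm2 alone and in 7.81%, and the NF-κB motif was in Ptx3 alone and in 4.51%. TATAAA on the strand of the gene was in C3 and Orm2 and in 8.32% of all windows. Genes that were high together in db/db wounds and genes that were not thus both held the C/EBP letters.

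The cytokines and signalling genes that induce the acute phase were set beside these levels as a list of 34 genes. For this list and those below, the background is the share of all probes called in the same comparison, given above with the member counts. The lists were chosen with earlier results of these data known, so their counts and adjusted p-values are descriptive. Some of the genes named from them were picked for the size of their difference. In db/db against WT wounds of labelled day 7, 8 of 34 were called higher and 1 lower, beside 5.67% and 8.42% of all probes. The median difference was 0.48 beside -0.05 for all probes. Il1b, which encodes interleukin-1β, rose by 3.81 (SE 1.01, adjusted p = 0.035 by limma), Tnf by 3.15 (SE 0.46, adjusted p = 0.0034) and Socs3, the feedback inhibitor of STAT3 signalling, by 1.48 (SE 0.25, adjusted p = 0.0060). Il6 stood 2.72 above WT (adjusted p = 0.085), at -0.14 and 0.48 in db/db and -2.83 and -2.27 in WT wounds. Transcripts of the transcription factors were close to level, with Stat3 at -0.02, Cebpb at 0.31 and Cebpd at 0.67, none of them called.

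Estrogen against db/db on labelled day 7 called 11 of the 34 inducers lower and 1 higher, beside 4.71% and 5.22% of all probes. The median was -0.50 beside 0.04. Il1b was at 3.46 and 3.95 in db/db, 2.06 and 1.86 in vehicle, and -4.55 and -0.99 in estrogen wounds, so estrogen lay below both. It fell by 6.48 (adjusted p = 0.0063) against db/db and by 4.73 (adjusted p = 0.039) against vehicle, in limma's fit. Socs3 fell by 2.61 (adjusted p = 0.00076) and by 2.03 (adjusted p = 0.0053). Tnf fell by 3.14 against db/db (adjusted p = 0.0051), whereas vehicle against db/db was -2.10 (adjusted p = 0.113) and estrogen against vehicle was -1.04 (adjusted p = 0.237). Il6 differed by -3.35 (adjusted p = 0.069) from db/db and by -3.98 (adjusted p = 0.052) from vehicle. Vehicle against db/db called 0 inducers higher and 2 lower, beside 2.52% and 2.3% of all probes. Estrogen against vehicle called 2 higher and 6 lower, beside 4.66% and 4.32%. Lifr, a receptor subunit for leukaemia inhibitory factor, rose with estrogen by 1.24 against db/db (adjusted p = 0.016).

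On labelled day 14, 2 of the 34 inducers were called higher and 0 lower in db/db against WT, beside 2.35% and 15.6% of all probes. The counts were 0 and 2 for estrogen against db/db, 0 and 2 for vehicle against db/db and 0 and 0 for estrogen against vehicle. Osm, which encodes oncostatin M, rose by 2.35 (adjusted p = 0.0095) in db/db against WT. Il1b and Il6 were at 1.39 and 1.48 in the same comparison, with adjusted p of 0.358 and 0.295, and were not called. Of the Saa genes in that comparison, Saa1 and Saa3 stood at -0.03 and 0.32 with overlapping arrays, and Saa2 at -1.27 without overlap.

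**Figure D4:**
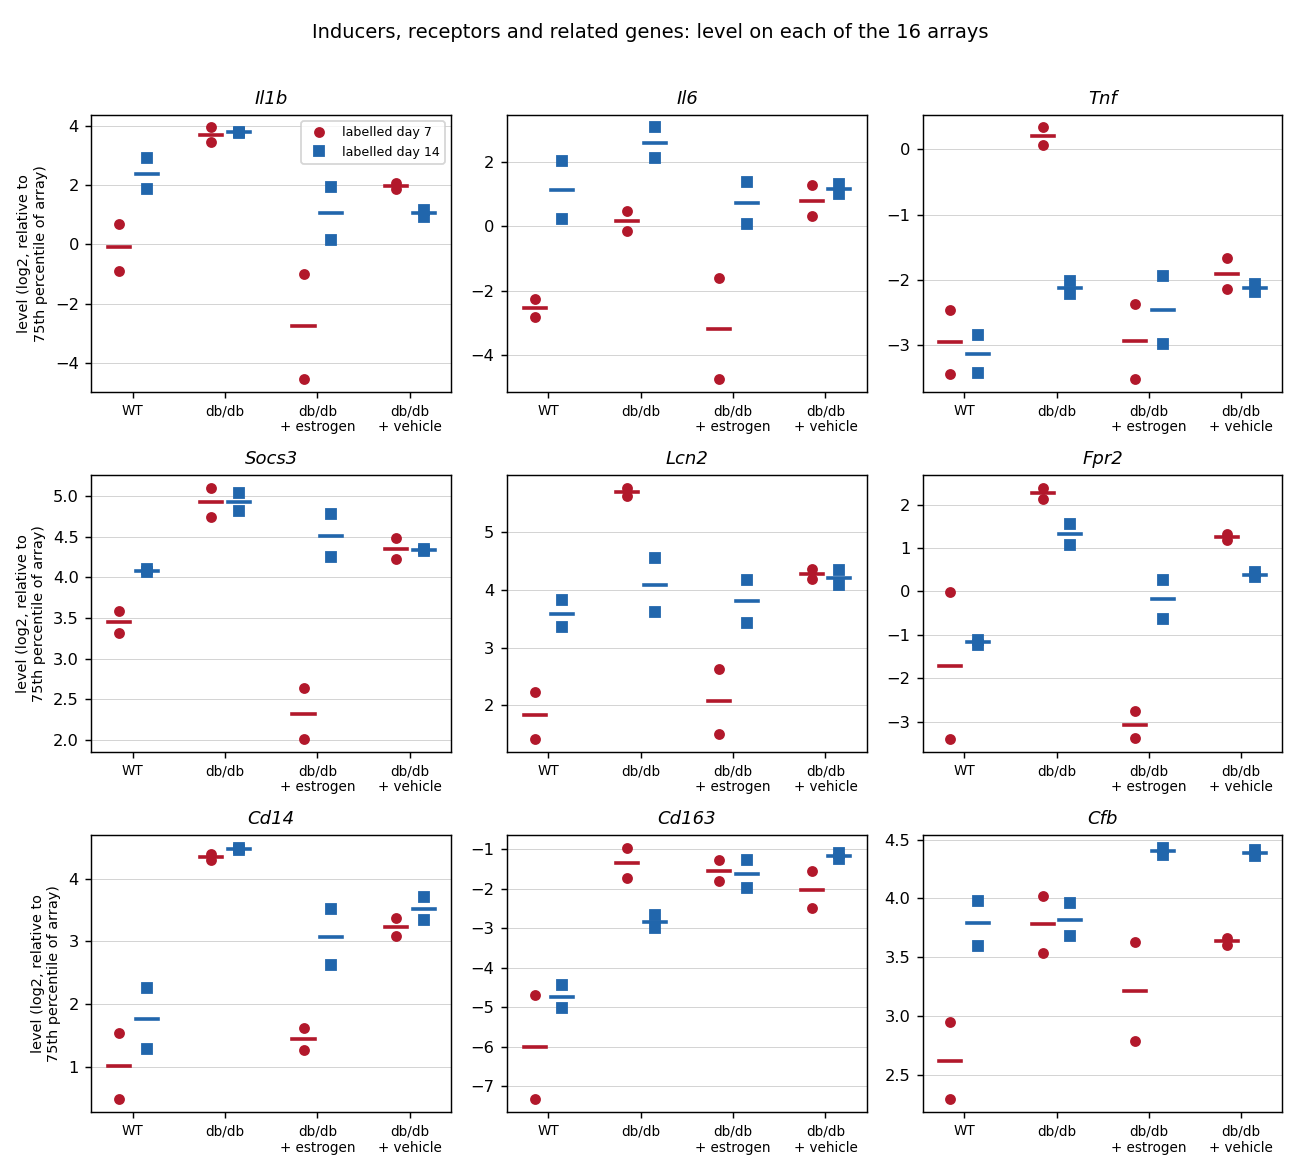
Level of 9 genes that induce the acute phase, bind its products or belong to it (vertical axis, log2 relative to the 75th percentile of the array) in the 4 groups, with red circles for labelled day 7, blue squares for labelled day 14 and a line at each mean of 2 arrays. Il1b, Socs3, Lcn2, Fpr2 and Cd14 were above WT and estrogen in the db/db and vehicle arrays of labelled day 7, while Cd163 was lower on each WT array than on any db/db array of the same day.

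Among the 26 receptors and partners of these proteins, 10 were called higher and 1 lower in db/db against WT wounds of labelled day 7. The median was 0.72, and 5.67% and 8.42% of all probes were called. The formyl peptide receptors Fpr1 and Fpr2, of which Fpr2 binds serum amyloid A, rose by 4.70 (SE 0.84, adjusted p = 0.0078) and 3.98 (SE 0.82, adjusted p = 0.014). Their WT arrays were far apart, at -0.96 and -3.87 for Fpr1 and -0.03 and -3.40 for Fpr2. Cd14 and Tlr2, receptors for microbial products, rose by 3.34 (adjusted p = 0.0015) and 1.70 (adjusted p = 0.0099), and Cd163, the macrophage receptor for haptoglobin bound to haemoglobin, by 4.67 (adjusted p = 0.0038). Cd163 was well above background on 1 of the 2 WT arrays of that day. Itgam, a subunit of complement receptor 3, fell by 2.03 (adjusted p = 0.025).

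Estrogen against db/db on labelled day 7 called 5 receptors lower and 3 higher. Fpr2 fell by 5.33 (adjusted p = 0.0058) and Cd14 by 2.91 (adjusted p = 0.0045), whereas Cd163 stood at -0.20 (SE 0.71, adjusted p = 0.914). The Cd163 arrays overlapped, at -1.80 and -1.28 with estrogen and -0.95 and -1.72 in db/db wounds. Vehicle against db/db called 1 higher and 3 lower, and estrogen against vehicle 1 higher and 5 lower, with Fpr2 falling by 4.32 (adjusted p = 0.026). At labelled day 14, 9 receptors were called higher and 3 lower in db/db against WT, and Cd14 rose by 2.71 (adjusted p = 0.0029) and Tlr2 by 1.33 (adjusted p = 0.019). The Tlr2 call was lost without WT replicate 2 of that day, at 0.84. In the other 3 comparisons of labelled day 14 the counts higher and lower were 1 and 1, 1 and 0, and 0 and 0.

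Of 31 further acute-phase plasma proteins, 30 had a probe. In db/db against WT wounds of labelled day 7, 13 of 25 tested were called higher and 0 lower, beside 5.67% and 8.42% of all probes. The median was 1.1 beside -0.05. Lcn2, which encodes the siderophore-binding lipocalin 2, was at 5.78 and 5.63 in db/db, 2.23 and 1.41 in WT, 1.50 and 2.63 in estrogen and 4.36 and 4.19 in vehicle wounds. Its order of groups was that of the Saa genes, with db/db highest and vehicle next. Lcn2 rose by 3.88 (SE 0.45, adjusted p = 0.0010) in db/db against WT and fell by 3.64 (adjusted p = 0.0025) with estrogen against db/db and by 2.21 (adjusted p = 0.033) against vehicle. Serpina3m, a protease inhibitor of the α1-antichymotrypsin cluster, rose by 2.75 (adjusted p = 0.040) in db/db against WT. Orm3 stood at 2.63 for estrogen against db/db (adjusted p = 0.147) and Saa4, the constitutive family member, at 0.32. Orm3 was at -3.33 and -2.76 in estrogen and -6.60 and -4.76 in db/db wounds of labelled day 7.

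Estrogen against db/db on labelled day 7 called 2 of the further plasma proteins higher and 5 lower of 27, vehicle against db/db 0 and 2 of 25, and estrogen against vehicle 3 and 3 of 27. The shares of all probes in these comparisons were 5.22% and 4.71%, 2.52% and 2.3%, and 4.66% and 4.32%. Mug1, a murinoglobulin, fell by 4.44 (adjusted p = 0.032) in estrogen against vehicle wounds. On labelled day 14 the counts were 3 and 3 of 26 for db/db against WT, 1 and 0 of 26 for estrogen against db/db, 2 and 0 of 27 for vehicle against db/db, and 0 and 0 of 27 for estrogen against vehicle. F13a1, the A chain of coagulation factor XIII, rose by 1.65 (adjusted p = 0.025) in db/db against WT on that day, while Lcn2 stood at 0.49 (adjusted p = 0.469).

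The complement genes other than C3 did not move as a block with it. Of 35 listed, 34 had a probe. In db/db against WT wounds of labelled day 7, 9 of 27 tested were called higher and 1 lower, beside 5.67% and 8.42% of all probes. Cfb, the partner of C3 in the alternative convertase, rose by 1.16 (adjusted p = 0.035), and its call was lost without WT replicate 2, at 0.83, or db/db replicate 2, at 0.92. Cfd, which encodes the protease that cleaves factor B and is made by fat cells, fell by 4.42 (adjusted p = 0.014), at 6.51 and 6.44 in WT and 2.02 and 2.10 in db/db wounds. With estrogen, 2 were called higher and 2 lower of 28 against db/db, and C6, a component of the membrane attack complex, rose by 3.64 (adjusted p = 0.011), while Cfb stood at -0.57 (adjusted p = 0.348). Vehicle against db/db called 1 higher and 3 lower of 27, and estrogen against vehicle 5 higher and 1 lower of 27, with Hc, which encodes complement component 5, rising by 2.93 (adjusted p = 0.026). On labelled day 14 the counts higher and lower were 4 and 1, 2 and 0, 0 and 4, and 0 and 0. Mbl2, mannose-binding lectin, was at least 2.15-fold higher in db/db than in WT wounds of labelled day 14, where neither WT array was well above background. That bound was not tested. The measured log2 difference, which rests on the dim WT values, was 3.43 (adjusted p = 0.0032 by limma).

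Markers of cell types also differed between the groups. The neutrophil list had 13 of 14 genes with a probe, and its summed signal, in multiples of the 75th percentile, was 364 to 410 in WT, 460 to 525 in db/db, 61.2 to 73.5 in db/db + estrogen and 467 to 495 in db/db + vehicle wounds of labelled day 7. Over all groups of labelled day 14 it was 280 to 515. S100a8 was at 6.56 and 6.55 in WT, 7.14 and 7.46 in db/db, 0.92 and 2.69 in estrogen and 7.61 and 7.31 in vehicle wounds of labelled day 7. Most of this sum came from S100a8, S100a9 and Csf3r on each array of labelled day 7. Ltf, lactoferrin, was at -6.19 and -5.06 in WT, 3.25 and 1.76 in db/db, -5.84 and -6.79 in estrogen and -5.51 and -3.28 in vehicle wounds. Camp, cathelicidin, was at -3.81 and -3.57, 4.11 and 2.66, -3.40 and -3.98, and -4.02 and -1.37 in the same groups. Vehicle thus lay far below db/db in Ltf and Camp, but not in S100a8. Over the 13 markers, vehicle against db/db called 0 higher and 5 lower, beside 2.52% and 2.3% of all probes. The median of the list was -1.01 in that comparison, where Saa1 stood at -1.10 and Saa3 at -0.99. Itgam of this list went the other way, at 4.09 and 3.64 in WT, 2.09 and 1.59 in db/db and 3.35 and 2.93 in estrogen wounds. Csf3r was nearly level, at 6.44 and 5.74, 5.42 and 6.12, and 5.46 and 5.32. Of the 13 markers, 9 were called higher and 1 lower in db/db against WT, with a median difference of 4.40, beside 5.67% and 8.42% of all probes. In estrogen against db/db 1 was called higher and 11 lower, with a median of -5.24, beside 5.22% and 4.71%. The Saa differences in the same comparisons were 3.95 to 4.43 and -6.28 to -4.90. Retnlg, a resistin-like gene of neutrophils, was at 4.63 and 4.15 in db/db and at -2.60 and -7.97 in WT wounds. The lower WT value was not well above background. The part of neutrophil markers in the differences of the acute-phase genes was not tested.

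The macrophage list had 9 of 10 genes with a probe and summed to 37.3 to 63.1 in WT and 86.7 to 119 in the 3 db/db groups of labelled day 7. It was called 7 higher and 0 lower of 9 in db/db against WT, and 0 higher and 4 lower in estrogen against db/db. Adipocyte, keratinocyte and fibroblast lists of 10 genes each gave at most 3 calls in a direction in any comparison. In db/db against WT, 3 keratinocyte markers were called lower on labelled day 7 (list median -0.92), beside 8.42% of all probes. On labelled day 14, 3 were again lower (-0.89), beside 15.6%. Vehicle against db/db on labelled day 14 called 3 keratinocyte markers higher (0.89), beside 5.31%. The part of these lists in the differences was not tested.

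**Figure D5:**
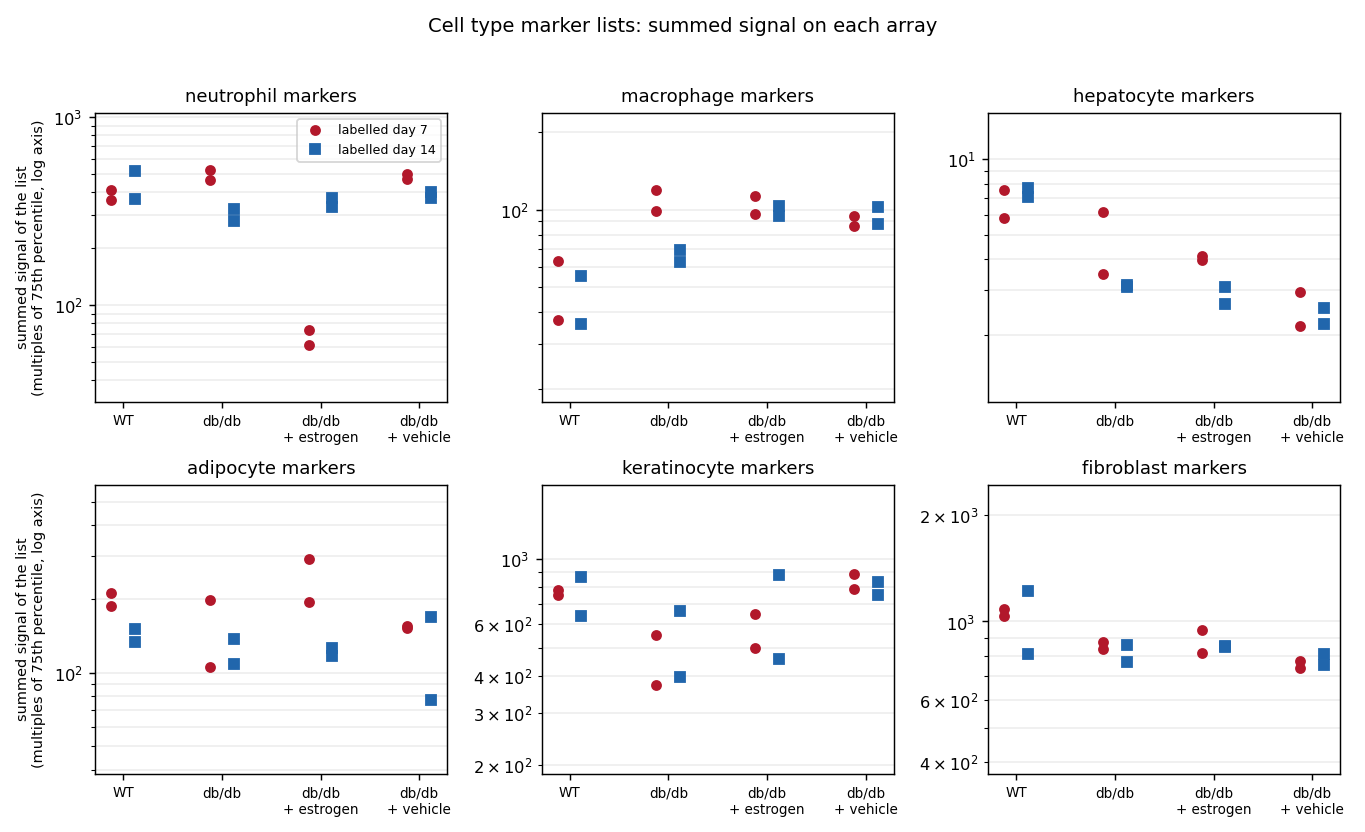
Summed signal of 6 lists of cell type markers on each array (vertical axis, multiples of the 75th percentile of the array, log scale) in the 4 groups, with red circles for labelled day 7 and blue squares for labelled day 14. The neutrophil sum of the estrogen arrays of labelled day 7, 61.2 and 73.5, is below those of the other 14 arrays. The hepatocyte sum stays under 8 on all 16, and on the WT arrays most of it is Cyp2e1.

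Liver is the main source of most of these proteins, so hepatocyte markers were read on the same arrays. Of 16 listed, 15 had a probe, and their summed signal was 2.16 to 7.66 on all 16 arrays. In WT wounds most of the sum came from Cyp2e1, at 2.54 and 2.01 on labelled day 7. Apoa2 was nearly level, between 0.30 and 1.01 on all 16 arrays, so the sum says little of dim markers such as Hnf4a. Alb, which encodes albumin, was at -1.28 on db/db replicate 1 of labelled day 7. On replicate 2 it was at -7.88, not well above background. Hnf4a, the hepatocyte transcription factor, was well above background on db/db replicate 1 of labelled day 7 alone. That array was also the only array on which all 15 markers were well above background, with 8 to 13 on the others. Without it the db/db against WT difference of labelled day 7 was 4.68 for Saa1, 4.48 for Saa2, 4.64 for Saa3 and 1.74 for Hp, and each was still called. Of the 10 hepatocyte markers tested in that comparison, 3 were called higher and 2 lower, beside 5.67% and 8.42% of all probes. Ambp, a precursor of a protease inhibitor, and Ahsg, fetuin A, rose in db/db against WT, by 5.05 (adjusted p = 0.00029) and 3.41 (adjusted p = 0.00085). Ambp was well above background on 1 of the 2 WT arrays of that day. Cyp2e1 and Cyp3a11 fell, by 4.55 (adjusted p = 0.024) and 1.46 (adjusted p = 0.020).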

How the data were processed

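Whole wounds of 4 groups on 2 labelled days were profiled on 16 single-colour arrays, 2 per group and day, and groups were taken from the sample labels. The scanner files as deposited hold an intensity per spot, background-subtracted by the authors in Agilent Feature Extraction 11.0.1.1, and detection marks. The deposited series matrix holds a ratio, the intensity over the 75th percentile of the array, to within 0.1% for at least 99.4% of probes, and it served as an alternative. Outlier spots and controls were left out, spots of a probe were averaged, and log2 of the signal minus the log2 75th percentile of the array was fitted in limma 3.58.1 (R 4.3.3) with 8 group means and 8 residual degrees of freedom. Between 70.1% and 79.0% of probes were well above background on an array and none was saturated, and the number of arrays limits the precision. A probe entered a comparison where either group had both of its arrays well above background. Benjamini-Hochberg adjusted p-values run over all probes tested.

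RefSeq symbols named 27427 of 39429 probes. The brightest probe of a gene over all arrays was used. The members and the gene lists were chosen with earlier results of these data known. Named genes were every member, 17 further genes fixed by name, and up to 2 genes per list, comparison and direction with the largest difference among those called with an adjusted p under 0.05. Marker genes were named to describe their lists after their values were seen. Of 40 published db/db versus WT fold changes over both days, 40 matched the arrays of the other labelled day to within 1% and 0 those of the same labelled day. Columns of the authors' own comparisons were not used otherwise. The fit was tested on simulated data. Promoter windows were aligned with Biopython 1.88. Alternatives were another background correction and normalization, filters on dim probes, the series matrix, the 4 arrays of a comparison alone, slide and replicate blocks, adjusted p-values, the mean of all probes of a gene, and leaving out each array.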

Additional observations from a re-analysis of the deposited data

Results flagged for a closer look

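The db/db against WT difference of Lcn2 was 3.88 on labelled day 7 and 0.49 on labelled day 14. The change between the labelled days was -3.39 (SE 0.63, adjusted p = 0.049, interaction term in limma). The 2 db/db arrays were above both WT arrays on labelled day 7 and overlapped them on labelled day 14. The list that holds Lcn2 was chosen with earlier results of these data known. For Saa2 the db/db arrays were above both WT arrays on labelled day 7 and below both on labelled day 14, a change of -5.22 in the difference, which was not tested because the gene was chosen with these levels known. The nearest arrays of labelled day 14 were at 0.04 in db/db and 0.10 in WT wounds. For Saa2 the vehicle arrays were below both db/db arrays on labelled day 7 and above both on labelled day 14. This change of 2.61 was likewise not tested. On labelled day 14 the nearest arrays were almost equal, at 0.045 in vehicle and 0.042 in db/db wounds. The vehicle difference of that day was 0.86 (SE 0.85) and not called. The db/db and WT arrays of labelled day 14 were on different slides. Both changes in db/db against WT, of Lcn2 and of Saa2, thus also hold any difference between these slides. The vehicle change of Saa2 holds it in part, with 1 vehicle array of labelled day 14 on each of these slides.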

How the results depend on the processing

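The number of the 9 genes called for estrogen against vehicle on labelled day 7, 4, and for estrogen against db/db on labelled day 14, 0, was unmoved by more than 1.5 times under every alternative run. For db/db against WT on labelled day 7 the 4 calls became 4 to 7 on leaving out 1 array, with Lbp, Ptx3 and C3 added without WT replicate 1. For estrogen against db/db on labelled day 7 the 5 calls became 3 by adjusted p and 3 to 6 on leaving out 1 array. For vehicle against db/db on labelled day 7 the single call became 3 with normexp correction, 3 with quantile normalization, 3 with only the 4 arrays compared (all lower, the Ptx3 call being lost), 2 with the mean of all probes, and 0 with the slide as a fixed block, with the replicate block and by adjusted p, and it ran from 0 to 3 on leaving out 1 array. For db/db against WT on labelled day 14 the 0 calls became 2 with only the 4 arrays compared and 1 with normexp correction, with a floor on dim signals and with the slide as a block, fixed or random. For vehicle against db/db on labelled day 14 they became 3 with only the 4 arrays compared and 2 with the slide as a fixed block. For estrogen against vehicle on labelled day 14 the single call became 0 with only the 4 arrays compared and by adjusted p, and ran from 0 to 2 on leaving out 1 array. The cause of these moves was not tested. By adjusted p the Saa2 call for estrogen against vehicle on labelled day 7 was also lost. Same-numbered arrays of labelled day 7 shared a slide, so for that day the replicate block and the slide block are the same. Deviations of same-numbered arrays had correlations of -0.45 to 0.39 over 25909 probes between groups, without a common sign. The replicate block moved no other of the 8 counts by more than 1.5 times. With an array left out, the remaining array of that group was assumed to vary like the other groups. No difference of a listed gene reversed, 2062 kept their side of the threshold, 31 gained a call and 83 lost it, and of the member differences 1091 moved by less than the spread between replicates and 61 by more. Quantile normalization changed the share of calls that were higher in db/db against WT from 40.3% to 52.2% on labelled day 7 and from 13.1% to 32.2% on labelled day 14, and for estrogen against db/db on labelled day 14 from 65.3% to 53.5%. For vehicle against db/db on labelled day 14 normexp correction changed it from 70.7% to 60.1%. The median difference of all probes in db/db against WT was -0.05 on labelled day 7 and -0.12 on labelled day 14, and with normexp correction -0.19 and -0.18.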

Other observations

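Other genes of the lists also differed between groups. F13a1 was at 3.32 and 2.08 in WT wounds of labelled day 7 and between 4.60 and 5.55 on the 6 arrays of db/db wounds of that day, so treatment with estrogen or sesame oil left it above WT. Vsig4, a complement receptor of tissue macrophages, was at -6.27 and -5.11 in WT, -1.53 and -2.50 in db/db, -0.01 and 0.33 in db/db + estrogen and 1.16 and -0.07 in db/db + vehicle wounds of labelled day 7. Osm was at -1.55 and -1.99 in db/db wounds of labelled day 7 and between -5.17 and -3.50 on the other 6 arrays of that day, with vehicle next and WT and estrogen overlapping, as for the Saa genes. Cfd was at 6.51 and 6.44 in WT wounds of labelled day 7 and between 1.75 and 3.41 on the other 6.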
